A study of Homo sapiens with 12 samples.

Results

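Fatty acid synthesis was described through 10 genes chosen by name: ACACA, ACACB, ACLY, FASN, SCD, FADS1, FADS2, ELOVL6, GPAM and SREBF1. Every probe annotated to one of them was taken and kept separate, which gave 17 probes among the 47323 probes with values, and 10 of the 20046 genes that have a named probe. The cells were MDA-MB-231, a human triple-negative breast cancer line. All of them were transfected for 24 h with 30 nM of a locked nucleic acid (LNA) gapmer, an antisense oligonucleotide that directs RNase H to the RNA it pairs with. In 6 samples the gapmer was directed against the long noncoding RNA CYTOR (LINC00152) and in 6 it was a control LNA. The labels place 1 CYTOR LNA array and 3 control arrays in batch 1, and 5 CYTOR LNA arrays and 3 control arrays in batch 2. They do not say how many different gapmers were used. Nor do they say whether replicates were grown separately, so the p-values cover the spread among these 12 samples, and that spread may be technical. No untransfected cells were analysed here.

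The pathway turns citrate into membrane and storage lipid. ATP citrate lyase (ACLY) releases acetyl-CoA in the cytosol, acetyl-CoA carboxylase converts it to malonyl-CoA, and fatty acid synthase (FASN) builds palmitate from both. The carboxylase step commits carbon to the pathway and is switched off when the AMP-activated kinase phosphorylates the enzyme. It has isoforms from separate genes: ACACA encodes the cytosolic enzyme of lipogenic cells, and ACACB encodes the enzyme at the outer mitochondrial membrane, whose malonyl-CoA restrains fatty acid import for oxidation. ELOVL6 lengthens palmitate, SCD inserts the double bond of oleate, and FADS1 and FADS2 desaturate polyunsaturated chains. GPAM attaches the first acyl chain to glycerol phosphate, and SREBF1 encodes the transcription factor that drives most of these genes. Many tumour lines, breast cancer lines among them, keep this pathway active.

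Values are log2 intensities as deposited, with array medians of 6.53, and a difference of 1 on this scale is a doubling. A gene's level cannot be set against another gene's, since probes differ in brightness. The arrays read pooled cells, so less transcript in every cell and a loss in some of the cells cannot be told apart. Probes with a mean at or above the median probe were tested with limma, with group and batch as terms, and a probe was called at a Benjamini-Hochberg adjusted p below 0.05 over all 23662 tested probes. The labelled line was checked against its markers. All 6 markers listed as present (VIM, CD44, EGFR, CAV1, MSN, AXL) had means between 8.04 and 13.3. By their brightest probes 2 of these 6 were called lower after the CYTOR LNA and 0 higher, where 5.4% of all tested genes were called lower. CD44 was 1 of the 2, at -0.21 (limma adjusted p = 0.034) with overlapping groups. Its other probes gave -0.05 and 0.07 and were not called. Of the 6 listed as absent, ESR1, PGR, CDH1 and GATA3 lay between 6.47 and 6.61, while ERBB2 (7.79) and EPCAM (7.91) were above that range. The brightest CYTOR probe averaged 6.74 ± 0.10 after its LNA and 7.83 ± 0.12 after the control LNA (SD, n = 6 each), without overlap, a log2 fold change of -1.10. The other CYTOR probes gave -0.67, also without overlap, and -0.13, with overlapping groups at a mean of 6.54 near the array median.

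ACACA was lower after CYTOR silencing, and ACACB was slightly higher. Promoter windows of both genes are shown because these paralogues encode the same enzyme activity and changed in opposite directions. The RefSeq promoter table (GRCh38.p14) lists several starts for each gene, 3 for ACACA spread over 107.1 kb and 2 for ACACB 38.09 kb apart. The table is not complete, and the ACACB gene record begins upstream of both listed starts. Each line gives 250 bases before a start and 50 after it, 5′ to 3′ on the gene's strand. Capitals mark GGGCGG (the GC box of SP-family factors) and CCAAT (the NF-Y box), on either strand.
ACACA start 1, chr17:37406787-37407086, minus strand: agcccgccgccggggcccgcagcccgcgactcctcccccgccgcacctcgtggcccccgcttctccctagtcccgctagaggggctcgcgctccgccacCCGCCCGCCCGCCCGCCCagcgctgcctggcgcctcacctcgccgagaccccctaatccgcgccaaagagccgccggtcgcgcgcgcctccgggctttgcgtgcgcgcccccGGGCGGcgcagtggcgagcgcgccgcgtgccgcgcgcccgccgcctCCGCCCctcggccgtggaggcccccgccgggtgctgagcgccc
ACACA start 2, chr17:37359047-37359346, minus strand: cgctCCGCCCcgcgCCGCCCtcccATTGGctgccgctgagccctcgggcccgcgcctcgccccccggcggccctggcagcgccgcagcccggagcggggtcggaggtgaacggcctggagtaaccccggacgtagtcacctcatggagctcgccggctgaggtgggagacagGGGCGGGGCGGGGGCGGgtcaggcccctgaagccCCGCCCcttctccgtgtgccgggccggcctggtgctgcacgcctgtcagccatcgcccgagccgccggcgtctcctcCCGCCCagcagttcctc
ACACA start 3, chr17:37299718-37300017, minus strand: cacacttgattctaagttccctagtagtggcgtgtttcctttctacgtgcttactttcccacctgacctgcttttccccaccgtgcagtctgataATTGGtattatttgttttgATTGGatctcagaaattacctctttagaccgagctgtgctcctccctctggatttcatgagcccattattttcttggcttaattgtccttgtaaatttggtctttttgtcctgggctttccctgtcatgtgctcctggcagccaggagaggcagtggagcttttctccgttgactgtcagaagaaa
ACACB start 1, chr12:109116337-109116636, plus strand: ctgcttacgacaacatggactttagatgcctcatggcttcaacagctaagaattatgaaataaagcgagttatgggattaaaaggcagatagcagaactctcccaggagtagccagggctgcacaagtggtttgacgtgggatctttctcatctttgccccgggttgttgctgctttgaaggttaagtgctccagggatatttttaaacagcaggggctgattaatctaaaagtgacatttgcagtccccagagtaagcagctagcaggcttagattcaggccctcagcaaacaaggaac
ACACB start 2, chr12:109154429-109154728, plus strand: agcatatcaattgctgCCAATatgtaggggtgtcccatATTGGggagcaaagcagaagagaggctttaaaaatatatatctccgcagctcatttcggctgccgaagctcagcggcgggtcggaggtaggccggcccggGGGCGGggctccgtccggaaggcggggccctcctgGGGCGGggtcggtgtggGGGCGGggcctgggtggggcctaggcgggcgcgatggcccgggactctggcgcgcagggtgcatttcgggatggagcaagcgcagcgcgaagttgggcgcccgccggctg
ACACA start 1 holds 6 GC boxes and no CCAAT, start 2 holds 7 GC boxes and 1 CCAAT, and start 3 holds none of the former and 2 of the latter. Matches that share bases are counted separately. At ACACA start 1 the GC boxes beginning at bases -151, -147, -143 and -139 from the start overlap in 1 repeat. At start 2 those beginning at -78 and -73 overlap. GC content falls from 82.3% and 77.3% at the first starts to 45.3% at the last. In ACACB the upstream window holds neither motif at 46% GC, and the downstream one holds 3 GC boxes and 2 CCAAT boxes at 67% GC. Of 35116 RefSeq promoter windows of this length, 45% hold GGGCGG and 34.6% hold CCAAT. The E-box CACGTG (7.26% of windows) was found in none of the 14 windows of the 9 member genes that the table lists. These matches describe the letters only, and which start the transcripts read by a probe came from was not examined.

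The brighter ACACA probe, ILMN_2331636, separated the groups completely. Its 6 CYTOR LNA arrays ran from 7.71 to 7.93 with a median of 7.82, and its 6 control arrays from 8.43 to 8.53 with a median of 8.45. The gap between the highest silenced and the lowest control array, 0.50, exceeded the full range of either group. The means were 7.83 ± 0.09 and 8.47 ± 0.05 (SD, n = 6 each). The log2 fold change was -0.66 (SE 0.051, limma adjusted p = 1.2e-09), which leaves 63.3% of the control signal (95% interval 58.8% to 68.1%), any background signal included. The exact two-sided permutation test over 924 splits of the arrays gave p = 0.0022, the smallest it allows.

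The next ACACA probe, ILMN_1772123, gave nearly the same change. Its silenced arrays ran from 7.40 to 7.65 (median 7.52) and its controls from 8.0 to 8.21 (median 8.11), again without overlap. The log2 fold change was -0.62 (SE 0.053, limma adjusted p = 7.6e-09, exact permutation p = 0.0022), or 65.0% of control (95% interval 60.3% to 70.1%). The probes' accessions differ (NM_198836 and NM_198839), and their deviations from the group means over the 12 arrays had a Pearson correlation of 0.67, as a description of probes that share samples and transcripts. Ordered by log2 fold change, these probes ranked 63rd and 68th lowest of the 23662 tested.

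The third ACACA probe, ILMN_1667641, was among the dimmest on the arrays. It is also annotated to NM_198839, but its mean of 6.39 was above only 1.53% of all probes, so it did not pass the filter. Its silenced arrays (6.35 to 6.42) and controls (6.34 to 6.43) overlapped, and in a fit without the filter its log2 fold change was -0.01 (SE 0.027). Whether a change in ACACA could have been detected with it at this brightness was not tested.

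**Figure D1:**
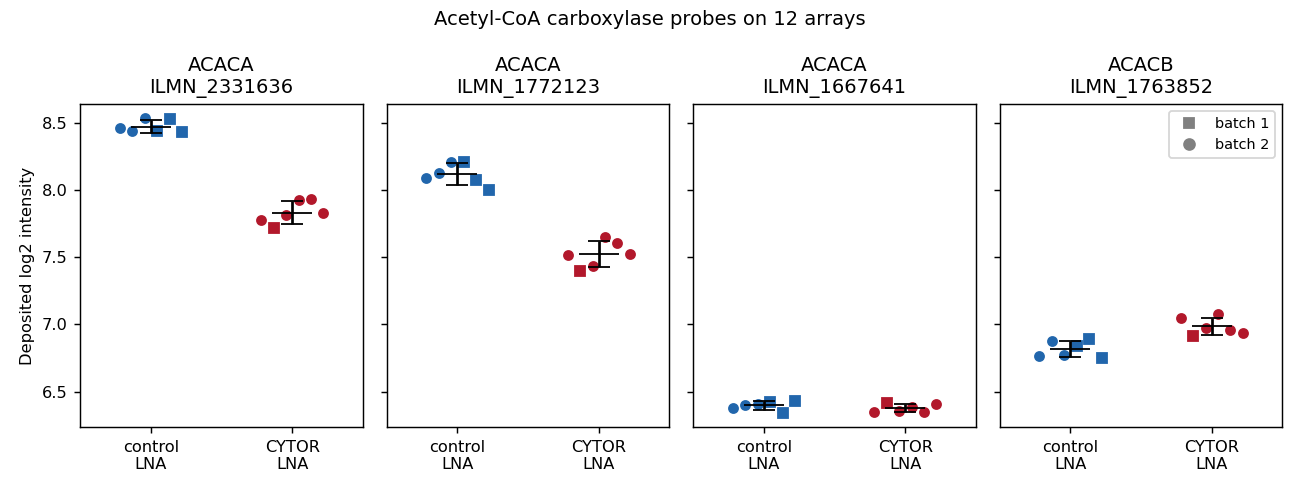
Deposited log2 intensity (vertical axis) of the 3 ACACA probes and the ACACB probe on each of the 12 arrays, with bars for the mean and SD of 6 arrays per group and squares for batch 1. The brighter ACACA probes fall without overlap (7.83 against 8.47, and 7.52 against 8.12), the third lies near 6.39 in both groups, and ACACB is higher after the CYTOR LNA (6.98 against 6.82).

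Within batches the ACACA fall kept its size. In batch 2 the brighter probe averaged 7.86 after the CYTOR LNA and 8.48 in controls, a difference of -0.62, and the next probe differed by -0.59. In batch 1 the single silenced array differed from the control mean by -0.75 and -0.69. That array, CYTOR LNA replicate 2, was the lowest of the 6 silenced arrays at both probes.

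ACACB moved the other way, by less. Its only probe, ILMN_1763852, read 6.92 to 7.08 on the silenced arrays (median 6.97) and 6.75 to 6.89 on the controls (median 6.81). All 6 silenced arrays were above the highest control, by a gap of 0.024, so the groups came close without overlapping. ACACB rose by 0.16 (SE 0.041, limma adjusted p = 0.013, 1.12-fold). The call was lost without control replicate 1 (adjusted p = 0.062), without control replicate 3 (0.054) and within batch 1, where the difference was 0.088 (0.54), in a range of 0.0031 to 0.54 over all alternatives. The probe's mean of 6.90 lies not far above the array median, where folds may be understated.

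The change of ACACA differed from those of ACACB and of FASN, the next enzyme. Per array, the log2 ratio of the brightest ACACA probe to the ACACB probe was 0.85 ± 0.08 after silencing and 1.66 ± 0.07 in controls (SD, n = 6 each). The changes differed by -0.82 (95% interval -0.93 to -0.72). For ACACA against FASN they differed by -0.66 (95% interval -0.88 to -0.43). Neither ratio overlapped between groups, and each exact two-sided permutation p was 0.0022, also after Benjamini-Hochberg adjustment over these 2 pairs. These pairs were chosen with the fall of ACACA known.

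Of the 15 tested member probes, 2 were called lower, where 4.11% of all tested probes were, and 2 were called higher, where 2.12% were. The called probes were the 2 of ACACA, that of ACACB and 1 of GPAM. By the brightest probe of each gene, 1 of 10 members fell (5.4% of all 12714 tested genes) and 2 rose (2.49% of genes). Counts over so few genes say little about the set, and its median log2 fold change was -0.008, against 0.0037 over all tested genes. Groups did not overlap for 3 of the 15 probes, both bright ACACA probes and ACACB, and for 5.24% of all tested probes.

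**Figure D2:**
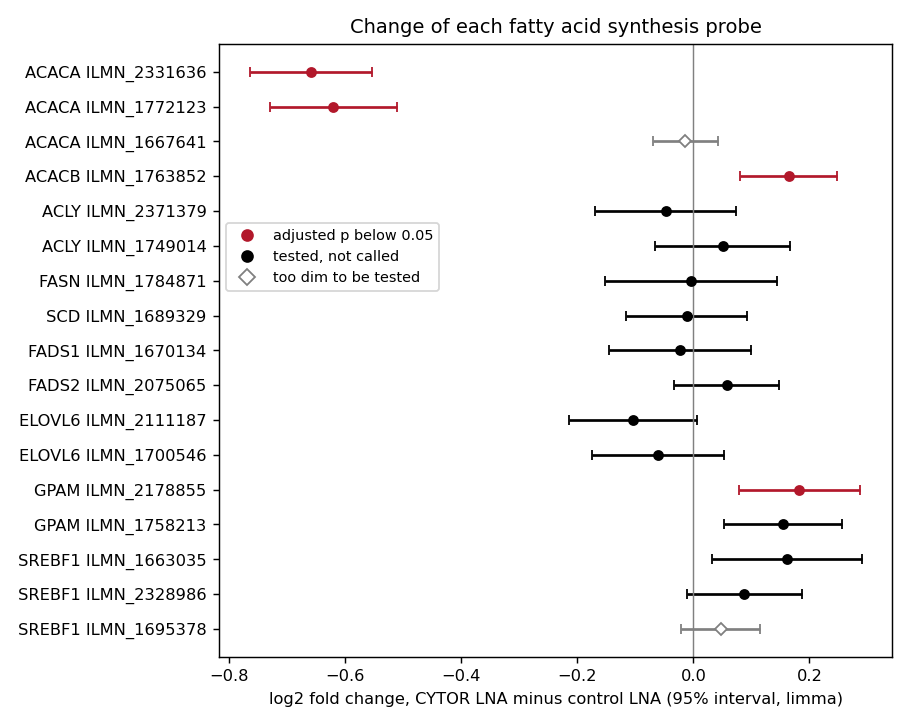
log2 fold change (CYTOR LNA minus control LNA, horizontal axis) with its 95% limma interval for all 17 member probes, 6 arrays per group. The ACACA probes at -0.66 and -0.62 stand apart, ACACB and GPAM lie between 0.16 and 0.18, and open diamonds mark the 2 probes too dim to be tested.

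Upstream and downstream of the carboxylase, the bright synthesis enzymes showed no called change. ACLY, which supplies the acetyl-CoA, gave -0.05 (95% interval -0.17 to 0.07) at one probe and 0.05 (-0.07 to 0.17) at the other. FASN ran from 10.3 to 10.7 on silenced arrays (median 10.6) and from 10.4 to 10.7 on controls (median 10.5). Its log2 fold change was -0.0046 (95% interval -0.15 to 0.14, limma adjusted p = 0.98), so that a change beyond about 1.1-fold in either direction lies outside the interval. CYTOR LNA replicate 6 was low for FASN, at 10.3, and without it the FASN difference was 0.05.

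The desaturases and the elongase had no called change either. SCD, at 11.6 to 11.9 on silenced and 11.7 to 11.8 on control arrays, gave -0.01 (95% interval -0.12 to 0.09). FADS1 gave -0.02 (95% interval -0.15 to 0.10). FADS2, a dimmer probe at 6.88, gave 0.06 (95% interval -0.03 to 0.15), with all 6 silenced arrays above the control median but overlapping groups. ELOVL6 had -0.10 (SE 0.053, limma adjusted p = 0.30) at its brighter probe, where 5 of 6 silenced arrays were below the lowest control, and -0.06 at the other. Within batch 2 the differences of SCD, FADS1 and FADS2 were -0.07, -0.11 and -0.00071. Within batch 1, with its single silenced array, they were 0.14, 0.19 and 0.20, and the difference between batches was not tested.

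GPAM, the acyltransferase that starts glycerolipid assembly, was higher at both probes, 1 of them called. ILMN_2178855 read 7.45 to 7.69 after silencing (median 7.59) and 7.33 to 7.50 in controls (median 7.43), with 5 of 6 silenced arrays above the highest control. It rose by 0.18 (SE 0.050, limma adjusted p = 0.028, 1.14-fold). ILMN_1758213 gave 0.16 (SE 0.049, limma adjusted p = 0.061), also with 5 of 6 silenced arrays above all controls. It was called without a batch term (adjusted p = 0.037), among the brightest 30% of probes (0.046), within batch 1 (0.012) and without CYTOR LNA replicate 6 (0.021) or control replicate 1 (0.049), in a range of 0.012 to 0.34. The call of the former was lost without CYTOR LNA replicate 2 (adjusted p = 0.14) or 4 (0.055), without control replicate 2 (0.11), within batch 2 (0.14) and with a replicate block and batch (0.082). Its adjusted p ranged from 0.012 to 0.14 over the alternatives.

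SREBF1, whose product activates lipogenic genes, did not pass. Its brightest probe, ILMN_1663035, read 8.24 to 8.59 on silenced arrays (median 8.45) and 8.17 to 8.40 on controls (median 8.30). The groups overlapped, and the log2 fold change was 0.16 (SE 0.062, limma adjusted p = 0.14). The other tested probe gave 0.09 (limma adjusted p = 0.34) and passed only within batch 1, at 0.25 (0.027, in a range of 0.027 to 0.88 over the alternatives). The third, at a mean of 6.47, was too dim to be tested. Over batches the brightest probe differed by 0.11 within batch 2 and by 0.29 within batch 1.

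**Figure D3:**
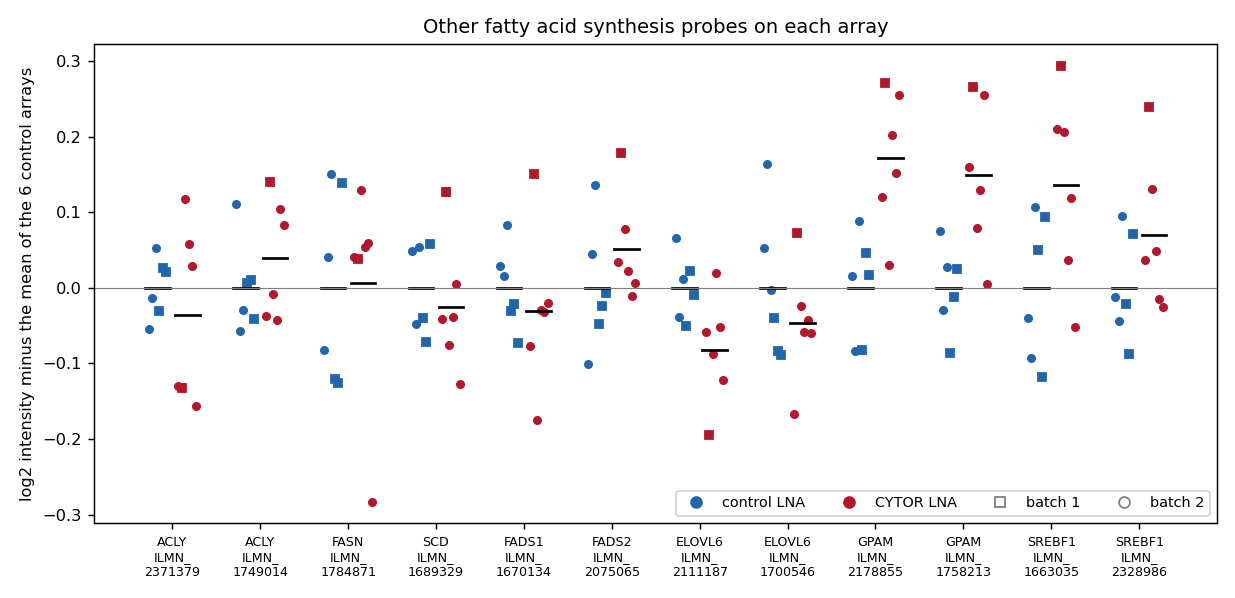
Log2 intensity minus the mean of the 6 control arrays (vertical axis) for the 12 tested probes of the other 8 genes, 1 point per array, with control LNA in blue, CYTOR LNA in red, squares for batch 1 and a line for each group mean. GPAM sits higher after the CYTOR LNA with overlap of the groups, CYTOR LNA replicate 6 is low for FASN, and the single silenced array of batch 1 is often the highest red point.

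Genes around the pathway were read from 9 lists of 93 genes, of which 76 were tested by their brightest probe. By limma 2 fell, 0 rose and 74 did not pass, with a median log2 fold change of -0.013, and at an unadjusted p under 0.05 there were 10 lower and 2 higher. Of all tested genes 5.4% were called lower and 2.49% higher. At an unadjusted p under 0.05 the shares of all tested genes were 11.4% lower and 10.2% higher, against which the unadjusted counts of single lists below are to be read. The fallen genes were PPARG and SLC27A1.

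PPARG, the nuclear receptor that drives lipid storage genes, fell at both of its bright probes. ILMN_1800225 averaged 10.2 ± 0.08 after silencing and 10.4 ± 0.10 in controls (SD, n = 6 each), a log2 fold change of -0.24 (SE 0.059, limma adjusted p = 0.011, 1.18-fold). Its highest silenced array, 10.2525, lay just below the lowest control, 10.2534. ILMN_2364384 averaged 8.35 ± 0.05 against 8.64 ± 0.07, without overlap, and fell by 0.28 (SE 0.052, limma adjusted p = 0.00073). The remaining 2 PPARG probes, at means of 6.41 and 6.47, were too dim to be tested.

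SLC27A1, a fatty acid transport protein with acyl-CoA synthetase activity, fell by 0.20 (SE 0.040, limma adjusted p = 0.0017). Its silenced arrays ran from 6.99 to 7.05 and its controls from 7.16 to 7.35, without overlap. The related SLC27A4, at a mean of 6.54 near the array median, gave -0.12 and did not pass (limma adjusted p = 0.089). Of the 7 tested acyl-CoA synthetase genes 1 was called lower, where 5.4% of all tested genes were. At an unadjusted p under 0.05, 3 of the 7 were lower and 0 higher, where 11.4% of all tested genes were lower. ACSL4, at -0.14 (limma adjusted p = 0.18), was among these 3.

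The partners that load or regulate the carboxylase did not pass. Of 12 tested genes of the AMP-activated kinase and other controls 0 passed, with 1 lower and 2 higher at an unadjusted p under 0.05, numbers near the shares over all genes. The kinase subunit gene PRKAB1 gave 0.10 (limma adjusted p = 0.22) and BRCA1, whose protein binds phosphorylated carboxylase, -0.12 (0.22). Of 8 biotin-dependent carboxylase and biotin genes none passed, nor at an unadjusted p under 0.05. The holocarboxylase synthetase HLCS, which attaches the biotin cofactor, gave 0.0067, BTD 0.06 and the propionyl-CoA carboxylase subunit gene PCCA -0.06.

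The acetyl-CoA and NADPH supply genes gave 0 calls among 6 by limma and 0 at an unadjusted p under 0.05, with the malic enzyme ME1 at 0.15 (adjusted p = 0.29) and the citrate carrier SLC25A1 at 0.07. The 6 tested genes of malonyl-CoA fate and carnitine transport gave the same counts, with SLC25A20 at -0.08 and the malonyl-CoA decarboxylase MLYCD at 0.04. So did the 6 other desaturases and electron donors, with SCD5 at 0.09 and CYB5B at -0.08. In elongation, HSD17B12 and HACD3 gave -0.17 each (limma adjusted p = 0.091 and 0.10), 2 of 10 lower at an unadjusted p under 0.05, where 11.4% of all genes were. The other tested HSD17B12 probe gave -0.10, and those of HACD3 gave -0.02 and -0.0058, none of them called. Within batch 2 the brightest probes of HSD17B12 and HACD3 passed, at -0.24 and -0.25, together with the dim probe of SLC27A4 at -0.17. Among 11 glycerolipid genes none passed, with AGPAT4 at -0.13 (limma adjusted p = 0.086), 1 lower and 0 higher at an unadjusted p under 0.05, and AGPAT1 at 0.11. SCAP, the escort of SREBP, gave -0.28 with a wide SE of 0.108 (limma adjusted p = 0.14). Of the 10 tested genes of SREBP processing and lipogenic transcription factors, PPARG included, 1 was called lower (5.4% of all tested genes). At an unadjusted p under 0.05, 3 were lower and 0 higher, where 11.4% of all genes were lower. These 3 were PPARG, SCAP and NR1H3 (-0.13, limma adjusted p = 0.22). A negative fold change was found for 9 of the 10, for 47.9% of all tested genes and for 43 of the 76 list genes.

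**Figure D4:**
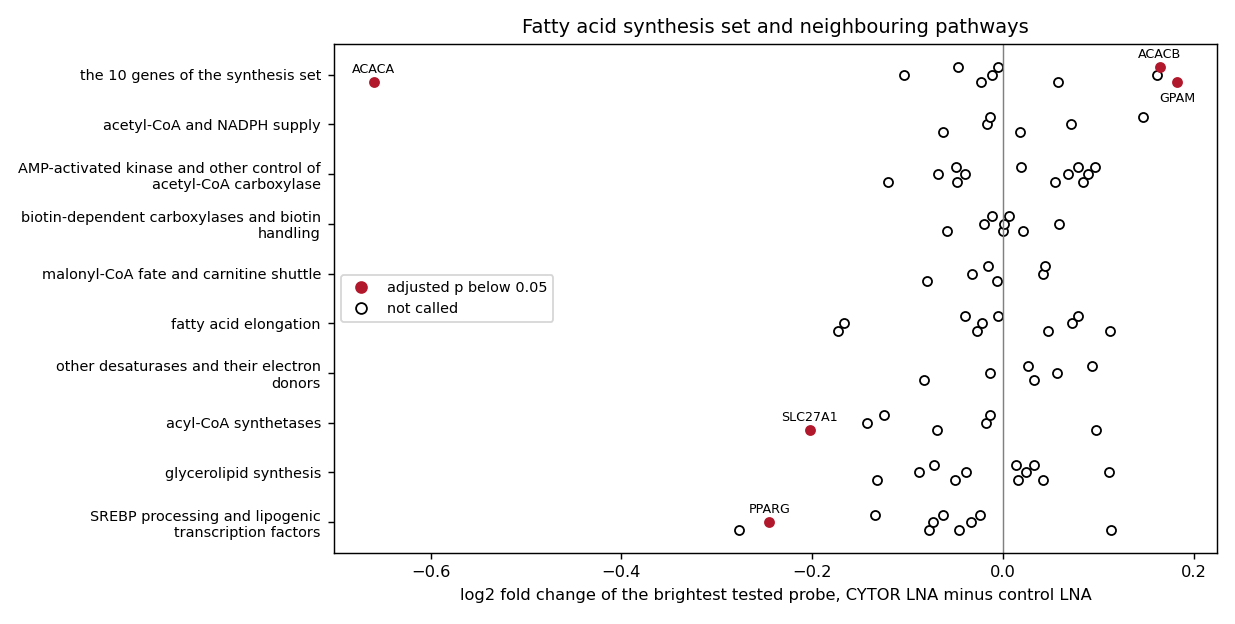
log2 fold change of the brightest tested probe (CYTOR LNA minus control LNA, horizontal axis) for the 10 members and 9 neighbouring gene lists, 1 point per gene and 6 arrays per group. Filled points were called: ACACA at -0.66, ACACB and GPAM above 0, SLC27A1 at -0.20 and PPARG at -0.24.

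Among markers of other cells, the adipocyte markers ADIPOQ, PLIN1, FABP4, CIDEC and CIDEA lay between 6.46 and 6.54, and LEP at 7.77. Their summed level ran from 40.07 to 40.45 on silenced and from 40.04 to 40.40 on control arrays, and 0 of 3 tested passed by limma, nor at an unadjusted p under 0.05. Of the hepatocyte and fibroblast markers 0 of 5 tested passed, with 1 higher at an unadjusted p under 0.05. The leukocyte markers PTPRC and CD3E lay at 6.44 and 6.45, LYZ at 6.72, CD14 at 7.87 and CD68 at 10.9. Of these the 3 tested all had positive fold changes: CD14 rose by 0.33 (limma adjusted p = 0.00057), with 0.06 at its other probe, and CD68 (0.09) and LYZ (0.05) did not pass. The part of these in the results was not tested.

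The members differ in length, and ACACA is the longest. By the RefSeq gene table it spans 322 kb, longer than 97.1% of tested genes. ACACB (157 kb) and ELOVL6 (153 kb) follow, the former higher and the latter without a call, and the other members span 17.4 to 77.8 kb. The part of gene length in the fall of ACACA was not tested.

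The 5 genes whose pattern over the 12 arrays was most like that of the brighter ACACA probe are listed as a description. That pattern holds the group difference, so a fall of each gene follows from the choice. CCDC50 had the highest Pearson correlation, 0.994, and a log2 fold change of -0.56 (SE 0.052). HDHD2 (0.991), C8orf76 (0.990), PIGU (0.990) and LDB2 (0.989) followed, with log2 fold changes of -1.17, -1.10, -1.15 and -0.33. The points share 1 chip and the difference between the groups. After group and batch means were removed the correlations were 0.88, 0.69, 0.71, 0.59 and 0.84 in that order, as a description of genes picked on the same arrays. The genes span 69.3, 43.1, 21.4, 117 and 397 kb.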

How the data were processed

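Total RNA, treated with DNase per the labels, was read on 12 Illumina single-colour bead arrays. The deposited table holds log2 intensities for 47323 probes (784 further rows are empty). Per the submitters' processing notes lumi was used; no source used here gives its version, the transformation or the normalization, so folds of dim probes may be compressed. A batch term had p below 0.05 for 1.79% of tested probes, where chance gives about 5%; whether the authors adjusted the values for batch is not stated.

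Probes were named through the platform annotation, updated to current RefSeq symbols: 30113 had 1 symbol, 8 several and 17202 none. All 17 member probes had a value on every array, and 15 passed the filter. limma 3.58.1 in R 4.3.3 was run on log2 values with an intensity trend, group and batch (9 residual degrees of freedom). In simulated data with independent noise it called 52% of changes of 0.2 and 96% of changes of 0.4. The simulation changed fewer probes than were called in the real data, so these shares are approximate. Changes of 0.2 or less can therefore be missed, and a probe that did not pass is not shown to be unchanged. Arrays correlated at 0.991 to 0.998 and none were identical. The number of arrays limits the precision, and no detection p-values or bead counts were used.

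Members, lists and tests were chosen with earlier results of these data known. The naming rule took all members, called list genes, the 2 genes of smallest p in each list, and the 5 genes most correlated with ACACA. HLCS, ACSL4, NR1H3, the other probes of list genes and single markers were added after their values were seen. The shared replicate numbers were not taken as pairs, since same-numbered samples correlated at only -0.17 to 0.18 in their deviations from group means. Alternatives varied batch, pairing, chip position, filter, normalization, variance model and arrays. Promoter sequences are RefSeq's (GRCh38.p14).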

Additional observations from a re-analysis of the deposited data

Results flagged for a closer look

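FASN on CYTOR LNA replicate 6 was far from the other 5 silenced arrays, at 10.28 against a next lowest of 10.60 and a highest of 10.69. The gap made up 0.78 of the group's range, above Dixon's critical value for 6 samples. It was the only one of 34 probe and group combinations past that value, and chance flags about 1 in 20. The same array was the lowest of the silenced arrays at 6 of the 15 tested member probes (FASN, SCD, 1 of ACLY, 1 of GPAM and both of SREBF1), and at 18.8% of all tested probes.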

How the results depend on the processing

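Both bright ACACA probes kept their direction and call under all 24 alternatives, at -0.75 to -0.62 and -0.69 to -0.59. The difference from ACACB, refitted under 18 of them, kept its direction and an interval without 0, at -0.86 to -0.80. The difference from FASN was -0.83 within batch 1 with an interval that included 0 (3 control arrays and 1 silenced), and -0.70 to -0.59 with an array left out. Over all tested probes 973 were lower and 502 higher. With an array left out these counts were 800 to 981 and 343 to 594, and the higher count was 811 without a batch term and 1426 within batch 1. Member probes called higher numbered 1 within batch 2 and with replicate block and batch, 3 without a batch term, among the brightest 30% of probes and within batch 1, and 1 to 3 with an array left out; those called lower were 2 throughout. With a replicate block alone 1093 probes were lower and 664 higher, and with replicate block and batch 826 and 408; the GPAM call was the member call that the latter ended. Only 1 of 6 silenced arrays, replicate 4, correlated best with its own number. Among the 76 tested list genes 5 were lower within batch 2. The share of all tested genes called lower in that fit is not given here, so the count has no background beside it.

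Values near 0 changed sign. FASN was 0.0063 without batch and with a replicate block, 0.013 with both replicate block and batch, and 0.074 within batch 1. Within batch 1 SCD was 0.14, FADS1 0.19 and the dimmer ELOVL6 probe 0.14, and within batch 2 FADS2 was -0.00071. With an array left out FASN ran from -0.037 to 0.047, SCD from -0.074 to 0.013, FADS1 from -0.11 to 0.0082 and FADS2 from -0.00071 to 0.11. Within batch 1 the single silenced array is assumed to vary like the others. The causes were not tested. Signals near 6.53 were not told apart from background, which limits the third ACACA and SREBF1 probes.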

Other observations

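CYTOR LNA replicate 2, the only silenced array of batch 1, read highest of the 6 silenced arrays at 9 of the 15 tested member probes. These were both of GPAM, both tested ones of SREBF1, and SCD, FADS1, FADS2, the dimmer ELOVL6 probe and 1 of ACLY. It was highest at 22.4% of all tested probes. At both bright ACACA probes, ACACB and the brighter ELOVL6 probe it read lowest. Among the controls, replicate 3 of batch 2 was highest at 8 of the 15 member probes and at 16.4% of all tested probes. Probes of 1 gene share its transcripts, so these counts are not independent.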
